A study of Mus musculus with 2 samples.

Results

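Tuft cell genes were followed in the colon of mice bred to lack EP4, a receptor for prostaglandin E2, in the intestinal epithelium. The set holds 9 genes, chosen by name around Dclk1, the tuft cell marker that the study stained and measured: Dclk1, Trpm5, Avil, Il25, Pou2f3, Sh2d6, Alox5ap, Gnat3 and Sucnr1. Of these, 8 had a probe on the arrays, out of 22909 named genes in all, and together they had 13 probes. Sh2d6 matched no probe.

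RNA of whole colon was labelled with Cy3 and hybridized to Agilent mouse expression arrays, with 1 array for each genotype, and both arrays lay on 1 slide. The control mice carried Villin-Cre, a transgene whose villin promoter drives Cre recombinase in the gut epithelium, and the EP4 cKO mice carried Villin-Cre; EP4flox/flox, in which Cre deletes the floxed stretch of Ptger4, which encodes EP4. All mice were C57BL/6 by the labels and 8 weeks old by the methods, and each array received RNA combined from 3 pools of colon. No replicate array stands behind any difference, so there is no p-value, and all values hold for these arrays alone.

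Signals are given as normalized signal, the background-subtracted intensity scaled so that the trimmed mean of each array is 2500, and each log2 ratio is EP4 cKO over Villin-Cre. The scanner software marks a probe as well above background when its spot stands clear of the local background. Of 56593 gene probes, 25683 (45.4%) stood well above background in Villin-Cre colon and 29177 (51.6%) in EP4 cKO colon, while 46.8% did so on neither array. Ptger4 had a normalized signal of 6227 in Villin-Cre colon and 5661 in EP4 cKO colon with its brighter probe, a log2 ratio of -0.14, and 393 and 592 with its dimmer probe, a log2 ratio of 0.59. Neither probe was past 2-fold lower, and whether they cover the floxed part was not tested, so they do not check the deletion. The genotypes rest on the labels of the arrays, and directions below are those of the arrays labelled Villin-Cre and EP4 cKO. All 10 markers of epithelium were well above background on both arrays, whereas the summed normalized signal of 6 fibroblast markers was 12957 in Villin-Cre colon and 304 in EP4 cKO colon. Which part of any difference below goes with that difference in stromal signal was not tested.

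Tuft cells are rare chemosensory cells of the epithelium, arising from crypt progenitors under the transcription factor Pou2f3. They sense luminal metabolites through taste-type receptors and G proteins, which open the cation channel Trpm5, and they answer with interleukin 25, leukotrienes, prostaglandins and acetylcholine. Interleukin 25 drives group 2 innate lymphoid cells to make interleukin 13, which acts on crypt progenitors so that more tuft and goblet cells form. Since RNA of whole colon was measured, fewer tuft cells and less RNA per tuft cell cannot be told apart.

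Tuft cell genes lay near the lower limit of these arrays. Of the 13 probes, 2 were well above background on the Villin-Cre array, 5 on the EP4 cKO array and 8 on neither. Avil and Alox5ap were measured on both arrays, and Dclk1 and Pou2f3 were well above background on the EP4 cKO array only. Trpm5, Gnat3, Sucnr1 and Il25 were well above background on neither, as were 36% of all genes on the arrays. Such a gene gets no fold here. For a probe seen on 1 array, the signal of the other array was replaced by that array's floor, which is the lowest normalized signal marked as well above background there (125 for Villin-Cre and 57.8 for EP4 cKO), unless the probe's own signal was higher. Its fold is then a bound, and a bound that did not exceed 1-fold was counted as a log2 ratio of 0.

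Among the 4 tuft cell genes with a value, 1 was more than 2-fold higher on the EP4 cKO array (Avil) and 0 were more than 2-fold lower. Over all 14669 genes with a value the share past 2-fold was 4.86% in the higher direction and 7.87% in the lower. The median log2 ratio of the 4 genes was 0.28, against -0.10 over all genes with a value. With 4 genes, of which 2 passed only through the EP4 cKO array, these counts describe the genes that could be seen and not the whole set.

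**Figure D1:**
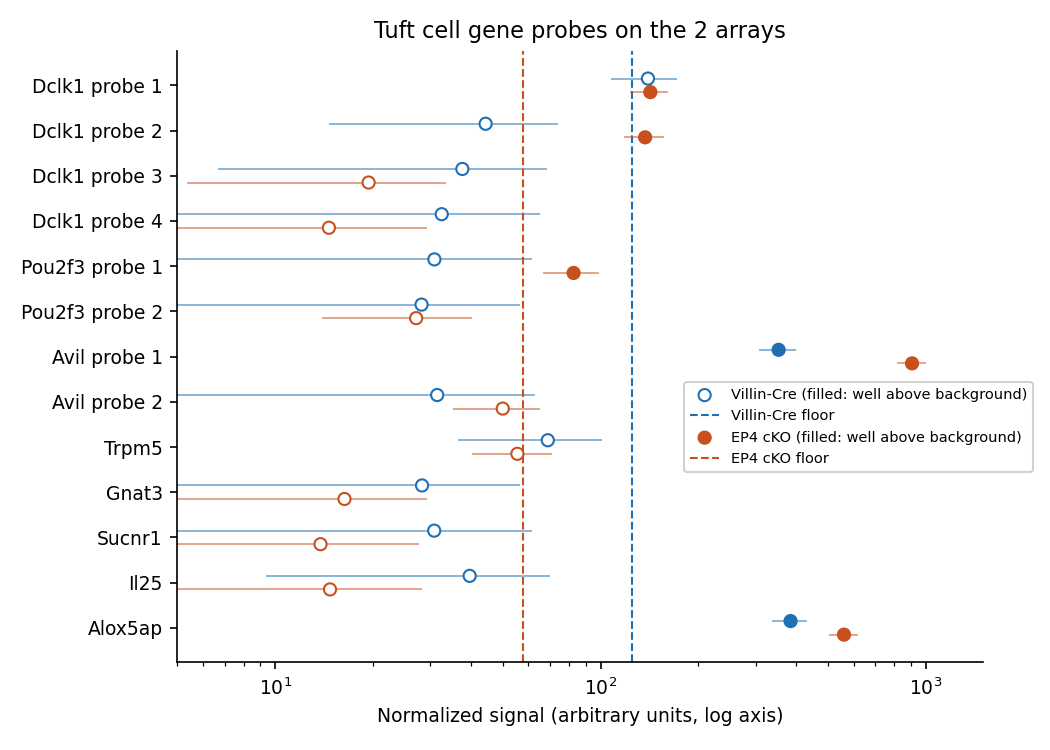
Normalized signal (log axis, arbitrary units) of each of the 13 tuft cell gene probes on the Villin-Cre array (blue) and the EP4 cKO array (orange), with bars for the error that the scanner software gave the spot, cut at the left edge where they run on. Filled points are well above background and dashed lines mark the lowest signal so marked on each array (125 and 57.8). Avil probe 1 and Alox5ap are filled on both arrays, and 8 probes are filled on neither.

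Pou2f3, the POU-domain factor without which tuft cells do not form, lies at chr9:43123927-43205755 (build GRCm38.p6) and had 2 probes. Its brighter probe had a normalized signal of 30.8 ± 30.9 (the error given by the scanner software for the spot) in Villin-Cre colon and 82.6 ± 16.2 in EP4 cKO colon. It was well above background on the EP4 cKO array only. The value of 82.6 lies under the Villin-Cre floor of 125, so that no fold above 1 can be given. The other probe had 28.2 and 27.1 and was well above background on neither array.

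Dclk1, a microtubule-associated kinase and the tuft cell marker of the study, lies at chr3:55242303-55539068 and had 4 probes, designed to 2 transcript accessions. The probe with the highest mean signal had 139.9 ± 32.4 in Villin-Cre colon and 142.3 ± 19.4 in EP4 cKO colon, a bound of at least 1.02-fold higher. These signals are all but equal, and the median pixel of the spot was 81 over a local background of 31 on the Villin-Cre array and 91 over 33 on the EP4 cKO array. Negative control spots lay below this spot in 97.7% of cases in Villin-Cre colon and in 99.0% in EP4 cKO colon. The second probe had 44.3 ± 29.7 and 137.1 ± 19.1, a bound of at least 1.09-fold higher, and at its own signals a log2 ratio of 1.63. The third had 37.6 and 19.4 and the fourth 32.5 and 14.6, both well above background on neither array. Thus the 2 probes that gave a value had bounds close to 1, and the 2 that gave none had log2 ratios of -0.96 and -1.15 at their own signals, near the median of -1.13 over all 26467 probes well above background on neither array, and give no direction.

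For Dclk1, 2 RefSeq starts have a window here and lie 219364 bases apart on the plus strand. Whether the probes tell them apart was not tested. The span given for the gene begins at 55242303, inside the first window, so these need not be all its starts. The 250 bases before each start are shown because the long and short forms of the kinase arise from separate promoters, and neither window holds any of the 3 motifs named with Sucnr1 below.
Dclk1, first start, chr3:55242114-55242363, plus strand: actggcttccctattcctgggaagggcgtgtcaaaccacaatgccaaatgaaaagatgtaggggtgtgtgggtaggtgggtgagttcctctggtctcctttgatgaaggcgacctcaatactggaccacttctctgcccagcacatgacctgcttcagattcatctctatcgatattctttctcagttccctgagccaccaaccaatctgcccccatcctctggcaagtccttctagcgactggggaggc
Dclk1, second start, chr3:55461478-55461727, plus strand: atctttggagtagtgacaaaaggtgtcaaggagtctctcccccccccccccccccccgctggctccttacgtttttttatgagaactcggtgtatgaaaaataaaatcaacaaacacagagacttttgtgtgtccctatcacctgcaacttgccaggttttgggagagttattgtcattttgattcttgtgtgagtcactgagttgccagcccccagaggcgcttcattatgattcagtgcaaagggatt

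Avil encodes advillin, an actin-bundling protein of the villin family found in the microvilli of tuft cells and in sensory neurons, and lies at chr10:127000065-127020994. Its brighter probe had 352.7 ± 46.4 in Villin-Cre colon and 906.9 ± 91.7 in EP4 cKO colon. The fold was 2.57, a log2 ratio of 1.36 with a propagated software error of 0.24. This was the only tuft cell gene past 2-fold, and 97.0% of the genes with a value had a lower ratio. Among 1281 genes of like mean signal (552 to 999), the median log2 ratio was -0.23, 4.45% were more than 2-fold higher and 2.89% had a higher ratio than Avil. The second Avil probe had 31.5 ± 31.5 and 50.05 ± 14.9, well above background on neither array, so the higher signal rests on 1 probe. Among probes of the arrays that are spotted several times and have a mean signal from 207 to 783, the SD of the log2 ratio over spots of 1 probe had a median of 0.149 and a maximum of 0.28 (5 probes), which covers 1 hybridization and not the mice. The stretch before an Avil transcript start is shown because Avil is the gene on which the count of higher genes turns. The stretch lies inside the span given for the gene, so the bases before that span were not searched. It too holds none of these motifs.
Avil, chr10:127000459-127000708, plus strand: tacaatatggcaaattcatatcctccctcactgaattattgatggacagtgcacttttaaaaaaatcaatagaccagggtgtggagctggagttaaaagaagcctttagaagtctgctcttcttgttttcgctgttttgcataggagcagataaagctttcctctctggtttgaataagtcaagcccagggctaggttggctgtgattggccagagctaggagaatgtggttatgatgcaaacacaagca

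**Figure D2:**
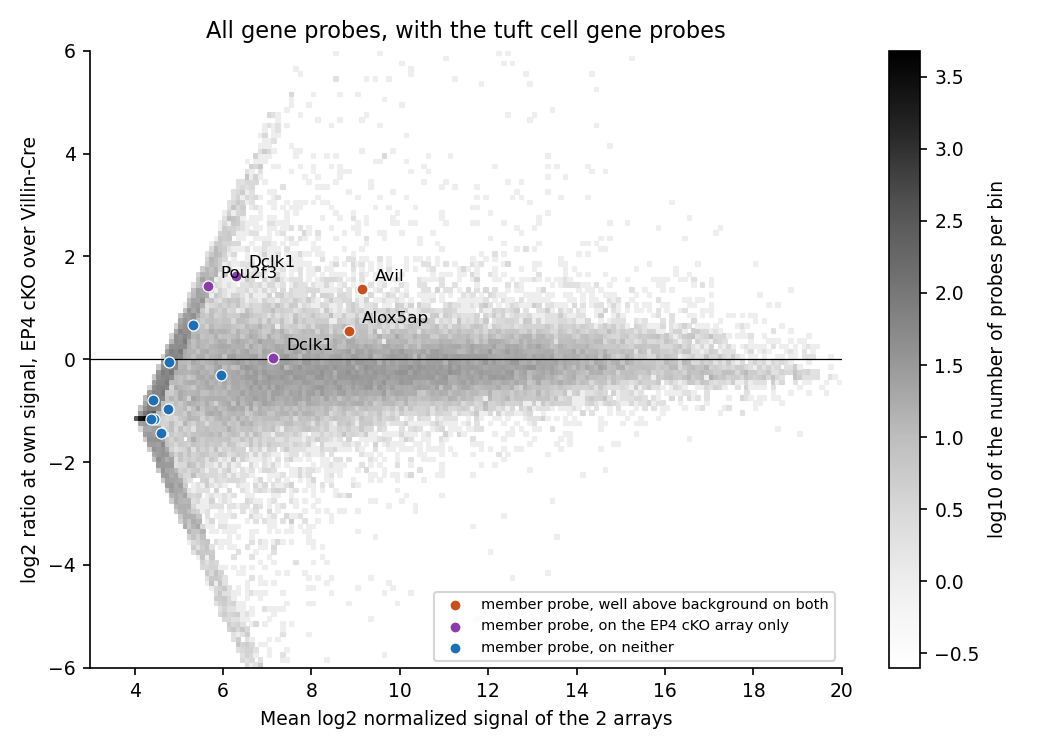
Log2 ratio of EP4 cKO over Villin-Cre at own signal (vertical) against the mean log2 normalized signal of both arrays (horizontal) for the gene probes (grey, darker where more probes fall in a bin) with the 13 tuft cell gene probes as coloured points. Ratios beyond 6 in either direction are not drawn. Avil (1.36) and Alox5ap (0.55) stand to the right of the dim wedge, in which most tuft cell gene probes lie.

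The chemosensory members gave no fold. Trpm5, the calcium-activated cation channel that depolarizes the cell after receptor signalling (chr7:143071529-143094642), had 68.8 ± 32.3 in Villin-Cre colon and 55.5 ± 15.4 in EP4 cKO colon. Gnat3, the alpha subunit of gustducin (chr5:17962570-18019668), had 28.3 ± 28.3 and 16.3 ± 13.1. Sucnr1, the receptor for succinate (chr3:60081869-60087566), had 30.8 ± 30.9 and 13.8 ± 13.8. In each case both signals lay under the lowest signal marked as well above background on that array, and at these signals a difference was not detectable.

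Pou2f3 belongs to the POU family, whose members bind the octamer ATGCAAAT. In windows from 250 bases before to 50 after the start, taken from RefSeq for GRCm38.p6 and searched on both strands, the octamer was found in 1 of 7 windows of 6 tuft cell genes, against 1.60% of 32851 windows of all genes. It lay in the window of Sucnr1 and began 48 bases before the start, in capitals below. The cyclic AMP response element TGACGTCA was in 0 of the 7 windows and in 1.55% of all, and TATAAA was in 0 of the 7 and in 12.4% of all. Il25, Pou2f3 and Alox5ap have no window in the table. A match of letters is not a site of binding, and these arrays hold no measure of binding.
Sucnr1, chr3:60081619-60081868, plus strand: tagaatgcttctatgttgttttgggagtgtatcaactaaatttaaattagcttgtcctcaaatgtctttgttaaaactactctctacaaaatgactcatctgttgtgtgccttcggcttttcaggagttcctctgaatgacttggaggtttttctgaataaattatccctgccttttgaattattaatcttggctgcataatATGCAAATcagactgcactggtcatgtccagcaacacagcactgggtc

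The effector genes differed in visibility. Alox5ap, the protein that presents arachidonic acid to 5-lipoxygenase for leukotriene synthesis (chr5:149265004-149288153), had 383.9 ± 46.7 in Villin-Cre colon and 560.2 ± 57.3 in EP4 cKO colon. The fold was 1.46, a log2 ratio of 0.55 with a propagated software error of 0.23, so it was higher but not past 2-fold. Of the genes with a value 89.3% had a lower ratio, and among 1282 genes of like mean signal (285 to 552) the median was -0.26 and 13.0% had a higher one. Il25, the cytokine through which tuft cells reach innate lymphoid cells (chr14:54932695-54935837), had 39.6 ± 30.2 and 14.7 ± 13.6. It was well above background on neither array, and no fold can be given.

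The signals of the dimmest probes fell on a narrow band. On the Villin-Cre array 20696 probes had no significant signal by the software, with a median normalized signal of 29.5, and on the EP4 cKO array 18042, with a median of 13.4. For the 15597 probes without significant signal on either array, the log2 ratio had a median of -1.14, and its values ran from -1.16 at the 10th percentile to -1.11 at the 90th. Sucnr1 at -1.16 and the dimmest Dclk1 probe at -1.15 lie in this band. Of the 26467 probes well above background on neither array, 73.6% were more than 2-fold lower at their own signal. Among the 8 such tuft cell probes 7 had a ratio below 0, with a range from -1.43 (Il25) to 0.67 (the dimmer Avil probe), and 3 were more than 2-fold lower. Gnat3 had -0.79 and Trpm5 -0.31 on this measure. A count of lower tuft cell genes made without a filter on dim probes would hold Il25 and Sucnr1, and a count of higher ones Avil and Pou2f3.

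Over the settings tried, the log2 ratio ran from 1.06 to 2.40 for Avil and from 0.55 to 1.58 for Alox5ap. The bound of Dclk1 ran from 0.02 to 1.06, and a probe seen on the EP4 cKO array only cannot come out below 0 by the floor rule. The highest of these came with the E1A control spots as the scale, which raised the median of all genes by 0.97. Other scalings raised that median by 0.10 to 0.13. Relative to the median of all genes, Avil ran from 1.06 to 1.73, Alox5ap from 0.63 to 0.91 and Dclk1 from 0.12 to 0.60. Pou2f3 ran from -0.43 with E1A to 1.79 without a filter on dim probes. The floor rule also holds Pou2f3 at or above 0, so the sign of the median over the 4 genes is not read here, and without a filter on dim probes the median over 8 genes was -0.14.

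**Figure D3:**
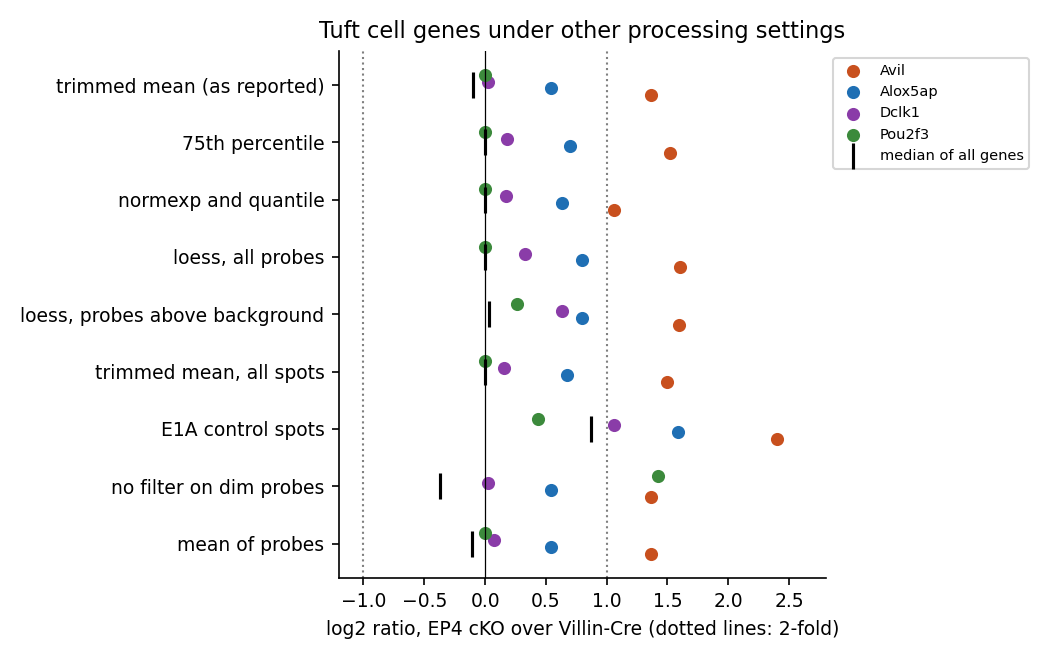
Log2 ratio of EP4 cKO over Villin-Cre (horizontal) of the 4 tuft cell genes with a value under each processing setting (vertical), with the median of all genes with a value as a black line. Avil lies past 2-fold (dotted line) in every setting drawn, Alox5ap and Dclk1 pass it with the E1A control spots only, and Pou2f3 passes it only where dim probes are not filtered.

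Both members measured on each array are also made by other cells of the colon. Alox5ap is abundant in myeloid and mast cells, and the summed normalized signal of 9 mast cell markers was 3172 in Villin-Cre colon and 25271 in EP4 cKO colon. On the Villin-Cre array 2 of the 9 were well above background, and on the EP4 cKO array 9 of 9. The mast cell proteases Mcpt4 (165.7 and 11093), Mcpt1 (at least 79.0-fold higher), Mcpt2 (at least 11.3-fold) and Cpa3 (at least 4.49-fold) were the 4 past 2-fold. With normexp and quantile normalization these were smaller, at 30.5-fold for Mcpt4 and at least 33.9-fold, 5.76-fold and 2.88-fold for the others. Kit, the brightest mast cell marker on the Villin-Cre array and also a gene of other cells, went the other way (2615 and 1604, log2 ratio -0.71), and Tpsb2 had no fold above 1. Of 8 myeloid markers 5 and then 6 were well above background, with summed signals of 63977 and 88760 and a median log2 ratio of 0.55, and most of both sums was Itgam (49347 and 68598). Cx3cr1 had a bound of 1.03, which was 0.59 with normexp and quantile normalization, and Cd14 (0.88, and 1.05 with its second probe) and Fcer1g (0.63) were higher, whereas Csf1r (4874 and 2817, log2 ratio -0.79) and Cd68 (-0.09) were not higher. Adgre1 and Lyz2, defining markers of macrophages, were well above background on neither array. The part of these cells in the Alox5ap ratio was not tested.

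Avil is also made by neurons, and of 10 markers of neurons and glia 4 were well above background on each array. Their median log2 ratio was -0.60, with Uchl1 at -1.43 and Snap25 at 0.50, and with scaling to E1A the median turned to 0.44. The glial and neural crest markers Ret, Sox10, S100b and Gfap were well above background on neither array. The part of neurons in the Avil ratio was not tested.

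A wider list of 83 tuft cell genes, in 5 groups by role, gave 65 genes with a value. Of these 6 (9.23%) were more than 2-fold lower on the EP4 cKO array and 5 (7.69%) more than 2-fold higher, beside 7.87% and 4.86% of all genes. The balance turned with other scalings, with 5 lower and 10 higher at the 75th percentile, 4 and 11 with loess, and 2 and 34 with E1A. Over all genes the balance turned likewise, with 6.18% lower and 6.39% higher at the 75th percentile, 5.72% and 6.65% with loess, and 2.26% and 39.1% with E1A. The median log2 ratio of the 65 genes was 0.00, against -0.10 over all genes. Of the 65, 14 were seen on the EP4 cKO array only and could not be called lower. Another 2 were seen on the Villin-Cre array only and could not be called higher. Since 7 bounds were held at 0, the median of 0.00 is not read as a difference. Over the 49 genes seen on both arrays the median was 0.08, against -0.15 over all such genes, with 4 lower and 2 higher. Of the 83, 18 were well above background on neither array.

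In the chemosensory cascade, 15 of 18 genes had a value, 2 were lower and 0 higher. Itpr2, an inositol trisphosphate receptor of the endoplasmic reticulum, had 5874 in Villin-Cre colon and 1811 in EP4 cKO colon, a log2 ratio of -1.70 that was -0.66 with E1A. With that scaling the group had 1 gene lower and 7 higher, where 39.1% of all genes were past 2-fold higher. Its relative Itpr3, the form used in taste cells, had 75696 and 67715, a log2 ratio of -0.16, near the median of all genes. Gnat1, the transducin of rods, was at least 9.34-fold lower, with 540.0 on the Villin-Cre array, and at least 2.15-fold lower with normexp and quantile normalization. Gnai2 had 0.38 and Trpm4, a channel related to Trpm5, -0.40 with its brighter probe and -1.18 with the other. Gng13, the gamma subunit that pairs with gustducin, had 139.6 and 210.6, a log2 ratio of 0.59. Plcb2, the phospholipase between receptor and channel, had 28.3 and 67.4 and was well above background on the EP4 cKO array only, with no fold above 1.

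Of 16 bitter taste receptors 12 were well above background on neither array. Tas2r130 was at least 5.50-fold lower, with 318.1 on the Villin-Cre array, but its log2 bound of -2.46 was -0.74 with normexp and quantile normalization, where it lost the call. Tas2r143 was at least 1.53-fold higher. Tas2r131 had 150.2 and 104.1, a log2 ratio of -0.53. No direction is read for these receptors, since 2 of the 4 with a value were seen on the EP4 cKO array only and could not be lower, and their median moved from -0.26 to 0.25 with loess over the probes seen on both arrays.

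Of 9 genes for eicosanoid and acetylcholine synthesis, 8 had a value and 0 passed 2-fold in either direction, with a median of -0.06 that turned to 0.02 with scaling to the 75th percentile. With that scaling 1 gene was past 2-fold higher, as with normexp, both loess settings and the trimmed mean over all spots, and with E1A 3 were. Ptges, a prostaglandin E synthase, had 43986 and 38795, a log2 ratio of -0.18 with its brightest probe, whereas 2 dim probes seen on the EP4 cKO array only gave bounds of 0.89 and 1.38. With the mean of probes the median of the group was 0.18. Pla2g4a, the phospholipase that frees arachidonic acid, had -0.32. Plaat3, also a phospholipase, had -0.43 with its brighter probe and 1.25 with the other, so its probes disagree. Alox5, the enzyme that Alox5ap serves, had 45.2 and 248.8, a bound of at least 1.98-fold higher. Ltc4s, the leukotriene C4 synthase that follows it, had 1489 and 1377, a log2 ratio of -0.11. With scaling to the trimmed mean of gene probes none of these leukotriene genes was counted past 2-fold. The Alox5 bound of at least 1.98-fold does not place Alox5 under 2-fold, and it lay nearest to that line in the group. Alox5, seen on the EP4 cKO array only, could not come out lower. Chat, which makes acetylcholine, had 129.4 and 165.2, a log2 ratio of 0.35.

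Among 32 other tuft cell factors and structural genes 30 had a value, 3 were lower and 3 higher, with a median of 0.09. The lower ones were Nrep (-1.57), Strip2 (-1.23) and Ly6g6d (-1.09), and with scaling to E1A they lay at -0.53, -0.19 and -0.05, and with normexp and quantile normalization 0 of the group were past 2-fold lower. Among the scalings, Ly6g6d was past 2-fold only with the trimmed mean of gene probes (-0.96 to -0.81 with the others apart from E1A), and its second probe had -0.76. The higher ones were Krt23, a keratin (2163 and 5107, log2 ratio 1.24), Hebp1, a heme-binding protein (at least 2.40-fold), and Ly6g6f (at least 4.55-fold, 105.1 and 569.9). With normexp and quantile normalization the log2 bound was 0.88 for Hebp1 and 1.22 for Ly6g6f, and 2 of the group were past 2-fold higher. With 75th-percentile scaling 2 of the group were lower and 5 higher. With E1A 0 were lower and 17 higher, where 39.1% of all genes were past 2-fold higher. Ly6g6d and Ly6g6f are neighbours in the Ly6 gene cluster and lay on opposite sides. The brightest of the group, Inpp5j (-0.32), Cd24a (-0.01) and Tmem176b (0.08), lay within 2-fold. The transcription factors Gfi1b and Spib, which act in tuft cells and in blood cells, had 32.4 and 81.6 (no fold above 1) and 580 and 670 (0.21).

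The 8 tuft cell genes that leukocytes also use all had a value, and their median was 0.89, the highest of the 5 groups. Pik3cg, a phosphoinositide kinase, was at least 2.71-fold higher, and Ptprc, the leukocyte antigen CD45, had 416 and 813, a log2 ratio of 0.97. Vav1 (0.09) and Ptpn6 (-0.15) lay near the median of all genes. Beside them, 1 of 7 T cell markers was past 2-fold higher (Cd3g, 1.28, or 0.88 with normexp and quantile normalization, with a list median of 0.00) and 0 of the 3 markers of B and plasma cells with a value were (median 0.21). The part of leukocytes in this group was not tested.

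**Figure D4:**
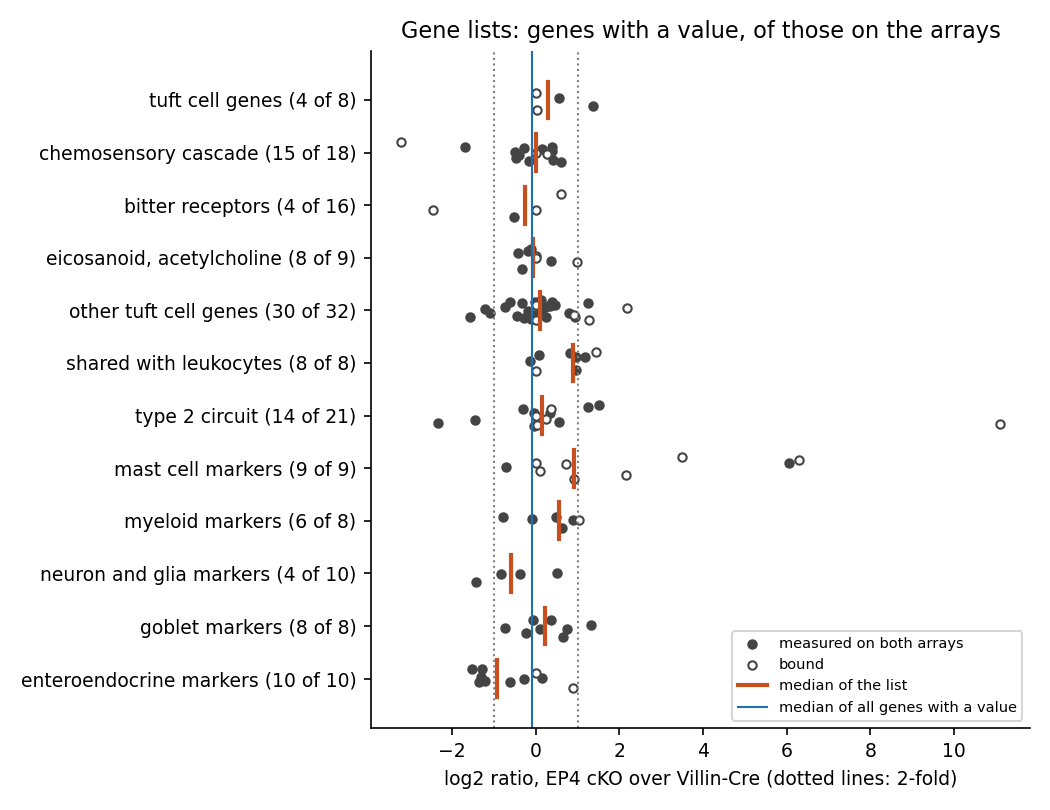
Log2 ratio of EP4 cKO over Villin-Cre (horizontal) of each gene with a value, by list (vertical; counts are genes with a value of genes on the arrays). Filled points were measured on both arrays and open points are bounds, with the median of each list in orange and that of all genes in blue. Each of the 5 wider tuft cell groups has genes on both sides of 0, with the highest median in the group shared with leukocytes (0.89), while the mast cell proteases and Retnlb lie far to the right.

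In the type 2 circuit that tuft cells feed, 14 of 21 genes had a value, 3 were higher and 2 lower. Over all genes 4.86% were past 2-fold higher and 7.87% lower. Of the 14, 5 were seen on the EP4 cKO array only, Retnlb among them, and could not be called lower. With loess over the probes seen on both arrays 5 were higher and 2 lower. With E1A 8 were higher and 1 lower, where 39.1% of all genes were past 2-fold higher. The cytokines Il13, Il4, Il5, Il9 and Tslp were well above background on neither array, like Il25. The receptor genes Il4ra, a subunit shared by the receptors of interleukin 4 and interleukin 13 (571 and 1615, 2.83-fold), and Crlf2, a subunit of the receptor of thymic stromal lymphopoietin (2720 and 6469, 2.38-fold), were higher. The second Crlf2 probe gave a log2 bound of 0.66, and with the mean of probes 2 genes of the circuit were higher. Il13ra1 (-0.05) and Stat6 (-0.04), the partner subunit and the transcription factor below it, differed little between the arrays. Retnlb, a goblet cell product with action on worms and bacteria, had 95.9 on the Villin-Cre array, where it was not well above background, and 275441 on the EP4 cKO array, at least 2197-fold higher, or at least 1003-fold with normexp and quantile normalization. Il33, an alarmin of stroma and epithelium, had 608 and 120.0, a log2 ratio of -2.34 (-1.10 with normexp and quantile normalization), and Rora, a factor of innate lymphoid cells, 323 and 118.4, a log2 ratio of -1.45. The ratio of Rora was -0.50 with normexp and quantile normalization and -0.41 with E1A, no longer past 2-fold. Il17rb, a subunit of the receptor of interleukin 25, had 97.2 and 161.4, a bound of at least 1.29-fold higher.

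The other secretory lineages of the epithelium could be seen far better than tuft cells. All 8 goblet cell markers were well above background on both arrays, with a median log2 ratio of 0.22 and Clca1, a goblet cell protein, past 2-fold (1.31). The others lay on both sides of 0. Spink4 (0.74), Fcgbp (0.64), Agr2 (0.35) and Spdef (0.09) lay above it. Muc2 (-0.06, and -0.19 with its second probe), Zg16 (-0.23) and Tff3 (-0.75) lay below it. Of 10 enteroendocrine markers 5 were more than 2-fold lower on the EP4 cKO array, namely Chga (-1.53), Neurod1 (-1.35), Tph1 (-1.30), Insl5 (-1.28) and Chgb (-1.22), and their list median of -0.92 turned to 0.11 with scaling to E1A. With normexp and quantile normalization 3 were lower, without Neurod1 (-0.66) and Tph1 (-0.68), and with E1A 0 were lower and 2 higher. The count of tuft cell genes is not set against these, because 2 of the 4 with a value could not be called lower. Differences between these lineages were not tested, since 1 array per genotype allows none. Of the other lists, Krt20 was the epithelial marker past 2-fold (1.80), Cnn1 the smooth muscle marker (-2.73, with 4 of 5 within 2-fold), and all 5 fibroblast markers with a value were lower: Dcn (-5.77), Col1a2 (-5.03) and, as bounds, Col3a1 (-4.81), Col1a1 (-4.32) and Lum (-3.15). With normexp and quantile normalization these were smaller, at -1.04 for Cnn1, -4.17 for Dcn, -3.32 for Col1a2, -2.96 for Col3a1, -2.46 for Col1a1 and -1.33 for Lum.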

How the data were processed

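Whole-colon RNA of both genotypes was measured on SurePrint G3 Mouse arrays, 1 per genotype, grouped by the genotype in the labels. The authors deposited scanner output: the intensity used is the processed signal, background-subtracted by Feature Extraction (12.0.3.1 in the file headers, 11.5.1.1 in the submitters' processing notes) and not normalized between arrays, and the flags were used as deposited. As in the methods, each array was scaled to a mean of 2500 after trimming 2% at each end (trimmed means 724 for Villin-Cre and 931 for EP4 cKO, factors 3.45 and 2.68). Control spots were left out, as were outlier spots (147 on the Villin-Cre and 126 on the EP4 cKO array), and repeated spots were averaged per probe. No spot was saturated (0 on each array). The number of arrays limits the precision. The median log2 ratio was -0.10 over all genes and -0.19 over probes well above background on both arrays.

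Probes were named by RefSeq accession through a table of GRCm38.p6 (32989 of 56593 probes, 58.3%), and promoter windows came from RefSeq. The array grid refers to an older build, so no probe position is given. Where a gene had several probes, the one with the highest mean log2 signal stands for it.

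The members, lists and alternatives were chosen with earlier results of these data known. Named genes are all members with every probe, Ptger4, and from each list the genes past 2-fold and up to 3 others of highest signal. Genes outside that rule (Gng13, Plcb2, Alox5, Ltc4s, Chat, Gfi1b, Spib, Il17rb, Cd68, Fcer1g, the remaining goblet cell markers and background-level markers and cytokines) were named for their role or to complete a list. This was done after their values were seen. No test was made. The steps were tested on simulated data. Alternatives were 75th-percentile scaling, normexp (offset 50, on the median pixel signal) with quantile normalization, loess (span 0.3), a trimmed mean over all spots, E1A spots, both-array genes only, no filter, one floor, 1.5-fold and 3-fold, and the mean of probes. R 4.3.3 with limma 3.58.1 was used for normexp, and Python 3.11.15 (statsmodels 0.14.6, pandas 2.3.3, numpy 2.4.6, matplotlib 3.10.9) for the rest. The staining and qRT-PCR were not analysed here. A few list genes are not reported here by name.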

Additional observations from a re-analysis of the deposited data

How the results depend on the processing

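The median log2 ratio of the tuft cell genes (0.28) was 0.44 with 75th-percentile scaling, 0.40 with normexp and quantile normalization, 0.56 with loess, 0.71 with loess over probes seen on both arrays (chosen after seeing the data), 0.42 with a trimmed mean over all spots, 1.32 with E1A spots, 0.95 over genes seen on both arrays and -0.14 without a filter on dim probes. The count more than 2-fold higher (1) was 3 with E1A spots (Dclk1, Avil and Alox5ap), 2 without a filter and 0 at 3-fold, and the count lower (0) was 2 without a filter. In the wider list the count higher (5) was 10 with 75th-percentile scaling, 11 and 14 with the first and second loess, 10 with the trimmed mean over all spots, 34 with E1A spots, 2 over genes seen on both arrays, 14 without a filter, 14 at 1.5-fold and 1 at 3-fold. The count lower there (6) was 2 with normexp, 2 with E1A spots, 17 without a filter and 3 at 3-fold. The cause of these moves was not tested, save that without a filter all 8 genes on the array entered. One floor for both arrays and the mean of probes left the counts of the tuft cell genes and of the wider list as they were. Of all genes past 2-fold, 38.2% were higher, and 50.8% with 75th-percentile scaling, 60.7% with normexp, 53.7% and 61.2% with the first and second loess, 48.9% with the trimmed mean over all spots, 94.5% with E1A spots and 13.9% without a filter. The E1A spots themselves (252) had a median log2 ratio of -1.04. No paired analysis was possible because each genotype has 1 array, and no replicate could be left out. Depth of signal limits the set, since 4 of the 8 genes were not well above background on either array.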
